A study of Homo sapiens with 4 samples.

Results

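The replication-dependent histone genes supply the histone proteins that package newly copied DNA. They were taken here as all genes whose symbol starts with HIST1H, HIST2H, HIST3H or HIST4H, which gave 78 of the 44591 genes in the files. Of these, 70 were annotated in the files as protein-coding and 8 as pseudogenes or miscellaneous RNA (HIST1H2APS1, HIST1H2BPS1, HIST2H2BA, HIST2H2BC, HIST2H2BD, HIST2H3DP1, HIST2H3PS2 and HIST3H2BA). By the type in the symbol, 6 encode or resemble the linker histone H1, and 18, 23, 16 and 15 the core histones H2A, H2B, H3 and H4. By the cluster in the symbol, 57 belong to HIST1 on chromosome 6 (25726291 to 27861669), 16 to HIST2 and 4 to HIST3, both on chromosome 1, and 1 is HIST4H4 on chromosome 12. Positions of genes are those of the files, on hg19. RNA-seq was performed on 4 replicates of HaCaT, a spontaneously immortalized keratinocyte line from human epidermis, untreated and grown in medium with 12% serum per the labels. The study's methods give a different serum content. All 4 belong to 1 condition, so there is no control group. The labels name total RNA for every replicate, and the selection of RNA before sequencing is not given in the sources used here.

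Histone proteins form the nucleosome, in which DNA is wound around a core of paired H2A, H2B, H3 and H4, while H1 binds the DNA that enters and leaves it. Most genes of these types lack introns, lie in clusters and are transcribed in S phase, when DNA is copied. Their messenger RNAs are the known exception among protein-coding RNAs, since they end after a conserved stem-loop that is bound by SLBP, and are not given a poly(A) tail. Several members are known to give longer, polyadenylated transcripts as well, above all in cells that have left the cycle. RNA selected by its poly(A) tail is known to hold little of this family. In bulk RNA, fewer cells in S phase and fewer histone transcripts per cell cannot be told apart.

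The stem-loop was searched for on the transcript strand only, in the transcripts of GENCODE 29 (GRCh38). It was taken as 16 bases made of 6 bases, a loop of 4 and the 6 complementary bases, starting with GG and ending with CC. A T before the loop, an A after it and a T as the second base of the loop were also required. These bases of the forms were thus set by the search. The stem-loop was present in a transcript of 31 of the 78 members (39.7%), against 208 of all 57133 genes (0.364%). Of the protein-coding members, 34 have only transcripts that stop at the stop codon, and no stem-loop can be read from those. Among the 36 with a transcript that runs further, 30 held it. The windows below, with 5 bases on each side, show the forms. The stem is in capitals and the loop and flanks in lower case.

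HIST1H2AC (chr6:26124664-26124689, plus strand): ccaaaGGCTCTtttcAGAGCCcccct
HIST1H2BD (chr6:26158582-26158607, plus strand): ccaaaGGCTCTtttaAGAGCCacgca
HIST1H3H (chr6:27810511-27810536, plus strand): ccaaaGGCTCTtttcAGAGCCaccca
HIST1H4E (chr6:26204996-26205021, plus strand): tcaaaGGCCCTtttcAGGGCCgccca
HIST2H4A (chr1:149833027-149833052, plus strand): ccaaaGGCCCTttttAGGGCCgacca
HIST3H2A (chr1:228457364-228457389, minus strand): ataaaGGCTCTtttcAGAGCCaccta

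The stem differed between types. All 8 H4 members with a stem-loop had GGCCCT in the first arm, and all 23 H2A, H2B and H3 members with it had GGCTCT. The form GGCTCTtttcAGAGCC was the commonest, in 18 members, of which 6 were H2A, 9 H2B and 3 H3 genes. In HIST3H2A, one of the members on which the results turn, 390 bases of annotated transcript follow the stem, and in HIST2H2BE 1729 bases follow it. Over the family, 22 members had a transcript of at least 600 bases with AATAAA or ATTAAA, the poly(A) signal, in its last 50 bases.

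The promoters were read from RefSeq (GRCh38.p14, 250 bases before to 50 after the first listed start), where 66 of the 78 members were matched by gene number. The octamer ATTTGCAT, known as the binding site of OCT1 in H2B promoters, was present on either strand in 14 of 18 H2B and 11 of 16 H2A promoters, in 1 of 13 H3 promoters and in none of the 6 H1 and 13 H4 promoters. The H3 match, in HIST1H3D, was the same site as that of HIST1H2AD, which overlaps it. The octamer was present in 1.80% of the promoters of all 27305 genes. CCAAT was in 56 of the 66 members' promoters (84.8%, against 35.7% of all genes), but in only 3 of 13 for H4. TATAAA was in 44 (66.7%, against 12.0%). The 30 bases around the octamer, in capitals, are shown for members with high levels. Matches of the 3 motifs can overlap only at their ends, and a match does not show that a site is used.

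HIST1H2BC (chr6:26124031-26124060, minus strand): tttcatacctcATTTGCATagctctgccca
HIST1H2BG (chr6:26216718-26216747, minus strand): ttgaattctttATTTGCATgaaaggcctat
HIST1H2BK (chr6:27146886-27146915, minus strand): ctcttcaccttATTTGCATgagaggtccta
HIST2H2BE (chr1:149886710-149886739, minus strand): tcggagccctaATTTGCATaaggtggttat

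The family took a very different part of each library. Histone genes held 1019190 of 73082279, 4107 of 17056035, 5263 of 19745170 and 1857 of 19083836 counts in replicates 1 to 4. These are 1.39% (95% Clopper-Pearson interval 1.39 to 1.40), 0.0241% (0.0233 to 0.0248), 0.0267% (0.0259 to 0.0274) and 0.00973% (0.00929 to 0.0102) of the counts. The mean was 0.364% ± 0.687 (SD, n = 4) with replicate 1 and 0.0202% ± 0.00912 (SD, n = 3) without it. The share in replicate 1 was 52.3 times the highest and 143 times the lowest of the other shares. The first ratio was 28.6 in TPM, which divides by gene length, and 101 without the 3 members that led replicates 2 to 4. Intervals cover counting error only, because no molecular identifiers were counted and reads may copy the same molecule. Replicate 1 was also the deepest library, which narrows its intervals but does not enter a share.

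Most members shared this pattern. In counts per 1000000 counted reads (CPM), the median member stood at 152 in replicate 1 and at 0.938, 0.709 and 0.262 in replicates 2, 3 and 4. In replicate 1, 64 members were above 10 CPM, and 2 members were above 10 CPM in each of replicates 2 to 4. More than 3 counts, the limit used here for detection, were found for 71, 59, 62 and 41 members in replicates 1 to 4, and for 40 members in all 4. Of all 44591 genes, 20871, 19109, 17782 and 18322 were above this limit. The limit is in counts and replicate 1 was the deepest library, so the numbers detected depend on depth. The 3 members at 0 in all 4 replicates were HIST1H2APS1, HIST1H2BPS1 and HIST2H3PS2, none of them protein-coding. A count of 0 allows up to 0.0410 CPM in replicate 1 and up to 0.176, 0.152 and 0.157 in the others.

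**Figure D1:**
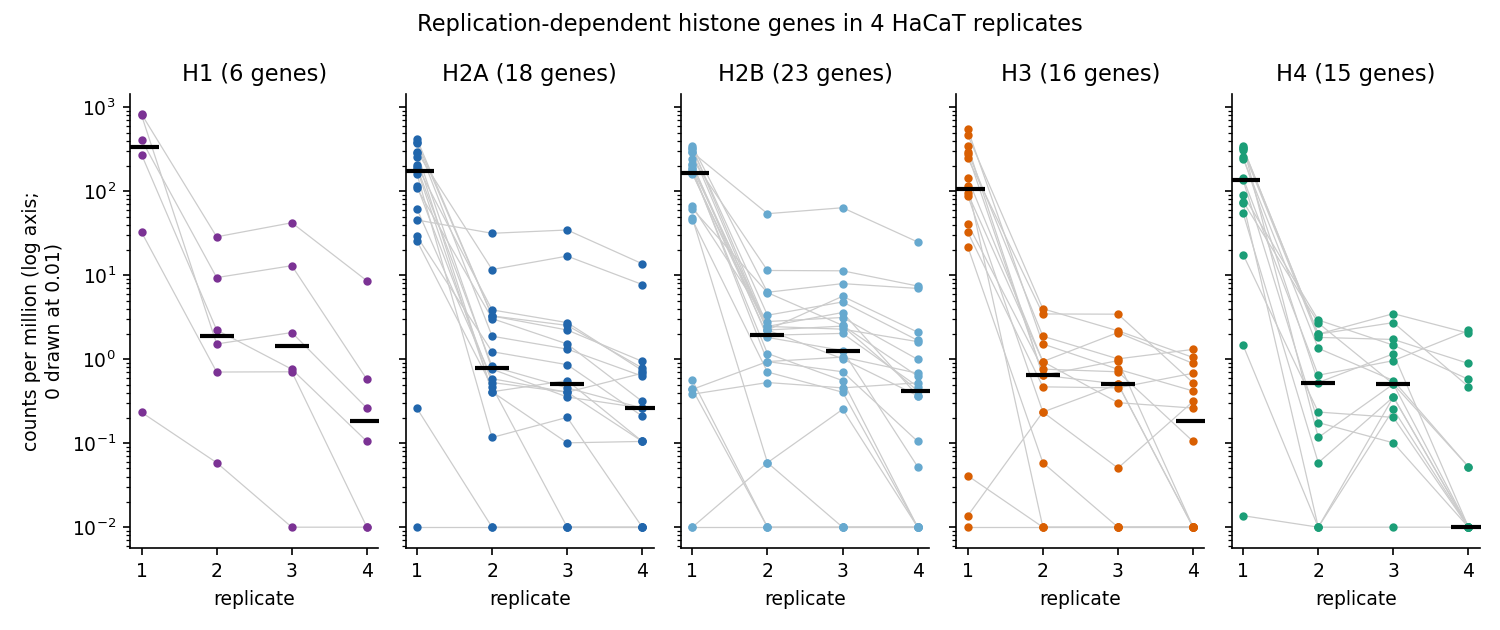
CPM (log axis, with 0 drawn at 0.01) of each of the 78 histone genes in the 4 replicates, by type; each point is a gene, grey lines join the values of the same gene and black bars are the medians of the type. In every type the median stood highest in replicate 1, between 106 and 341, and at most 1.93 in the others.

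For each replicate in turn, the members were counted whose CPM was at least 4 times that in each other replicate, with 0.5 added to the counts and at least 10 counts summed over the replicates. Of the 72 members that passed the filter, 67 met the rule in replicate 1, where 5.11% of all 21553 genes tested did. None met it in replicates 2, 3 and 4, where 0.705%, 0.213% and 0.172% of all genes did. Of the 72, 14 passed the filter only through replicate 1 and so had to be higher there. Among the 58 with at least 10 counts summed over replicates 2 to 4, a filter added after seeing the data, 54 met the rule in replicate 1, where 1.96% of all 18793 genes did. The exceptions were HIST2H2BC, HIST2H2BD, HIST3H2A and HIST3H3. The 6 members under the first filter were the 3 at 0 in all 4 replicates, and HIST1H4G, HIST2H3DP1 and HIST3H2BA. The median log2 ratio of replicate 1 to the mean of the others was 6.96 over the 72 members (from -3.47 to 12.09) and -0.29 over all genes tested. The ratio was above 0 for 69 of the 72 members and for 9099 of all 21553 genes tested. Over the 58 members, without the 14 that passed only through replicate 1, the median was 6.87. No test belongs to these counts, since a single library stands against 3. The labels describe the 4 replicates alike, so what sets replicate 1 apart cannot be read from them.

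The linker histone H1 compacts the fibre between nucleosomes. HIST1H1C (H1.2) was the member with the most counts in replicate 1, at 829 CPM, and was at 28.7, 42.2 and 8.59 CPM in replicates 2, 3 and 4. HIST1H1B (H1.5) stood next to it in replicate 1 at 802 CPM, but at 1.52, 2.08 and 0.262 CPM in the others. These 2 neighbours at the top of replicate 1 thus differed by 31.3-fold and 623-fold, respectively, from the mean of the other replicates. HIST1H1E (H1.4) was at 409 CPM in replicate 1 and at 9.38, 13.0 and 0.576 CPM in the others, so that replicate 4 was the lowest for all 3 genes. HIST1H1D and HIST1H1A reached 273 and 32.5 CPM in replicate 1. HIST1H1T, the testis form of H1, had 17, 1, 0 and 0 counts.

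H2A and H2B form dimers on the outside of the core. HIST1H2AG had the most counts of the H2A genes in replicate 1, at 417 CPM, and had 3.28, 2.23 and 0.943 CPM in replicates 2 to 4. HIST1H2AE was at 386 CPM in replicate 1 and at 3.28, 2.53 and 0.786 CPM in the others. HIST2H2AC, of the HIST2 cluster, was at 371 CPM in replicate 1 and at 1.88, 1.32 and 0.629 CPM in the others. For all 3 genes replicate 1 lay far above the mean of the other 3 (194-fold, 175-fold and 291-fold), and the other replicates lay within a few CPM of each other. HIST1H2AC was the exception among the abundant H2A genes of the HIST1 cluster. It was at 295 CPM in replicate 1 and at 11.7, 16.9 and 7.76 CPM in replicates 2 to 4, a ratio of 24.4.

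HIST3H2A behaved differently from the other abundant members. It was at 45.5, 31.6, 34.6 and 13.7 CPM in replicates 1 to 4. Replicate 1 was thus 1.71 times the mean of the others, the smallest ratio of any member with at least 10 counts in each replicate other than HIST2H2BC (0.490), which had 32, 16, 21 and 13 counts. In replicate 1 HIST3H2A made up 0.326% of the histone counts, and in the others 13.1%, 13.0% and 14.1%.

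Among the H2B genes, HIST1H2BD had the most counts in replicate 1, at 348 CPM, and had 6.27, 7.95 and 6.97 CPM in replicates 2 to 4. Unlike most named members, it was not lowest in replicate 4. HIST1H2BG was at 329 CPM in replicate 1 and at 2.46, 2.28 and 1.62 CPM in the others. HIST1H2BK had the most counts of all members in each of replicates 2, 3 and 4, at 54.1, 63.7 and 24.9 CPM, and was at 291 CPM in replicate 1, a ratio of 6.12. Per kilobase of gene length, it and HIST3H2A stood level in replicates 2 to 4, both with a mean of 53.7 CPM. Its annotated span in the files, from 27106072 to 27114637 on chromosome 6, contains HIST1H4I on the opposite strand, and the counting is not stated to use strand. HIST2H2BE, the longest member at 2223 bp, was at 240.5 CPM in replicate 1 and at 11.4, 11.3 and 7.44 CPM in the others, a ratio of 23.9. HIST1H2BA and HIST1H2AA, the testis forms of H2B and H2A, had 32 and 19 counts in replicate 1 and 0 in the other 3.

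H3 and H4 form the tetramer at the centre of the core. HIST1H3B led the H3 genes at 546 CPM in replicate 1 and had 1.52, 0.760 and 0.419 CPM in the others. HIST1H3H was at 468 CPM in replicate 1 and at 3.99, 2.18 and 1.05 CPM in the others, and HIST1H3F was at 343 CPM in replicate 1 and at 0.645, 0.506 and 0 CPM. No H3 gene exceeded 3.99 CPM outside replicate 1. HIST3H3, the testis H3 gene, had 1, 4, 1 and 6 counts and set the lowest log2 ratio of the family (-3.47). HIST1H3G was at 296 CPM in replicate 1 and at 1.88, 1.01 and 1.31 CPM in the others. HIST1H3D, at 249 CPM in replicate 1, contains HIST1H2AD on the same strand, so that the counts of those genes cannot be told apart with confidence.

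Nearly all H4 genes encode the same protein. HIST1H4D was at 349 CPM there and at 0.117, 0.506 and 0.0524 CPM in replicates 2 to 4. HIST1H4C was at 328 CPM in replicate 1 and at 1.99, 3.49 and 2.04 CPM in the others, the most of the H4 genes in replicate 3. HIST1H4E was at 327 CPM and HIST1H4H at 307 CPM in replicate 1, with at most 2.73 and 1.82 CPM in the others. HIST1H4G had 1 count in all. HIST4H4, the only member of its cluster, was at 90.9 CPM in replicate 1 and at 2.93, 1.47 and 0.576 CPM in the others.

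**Figure D2:**
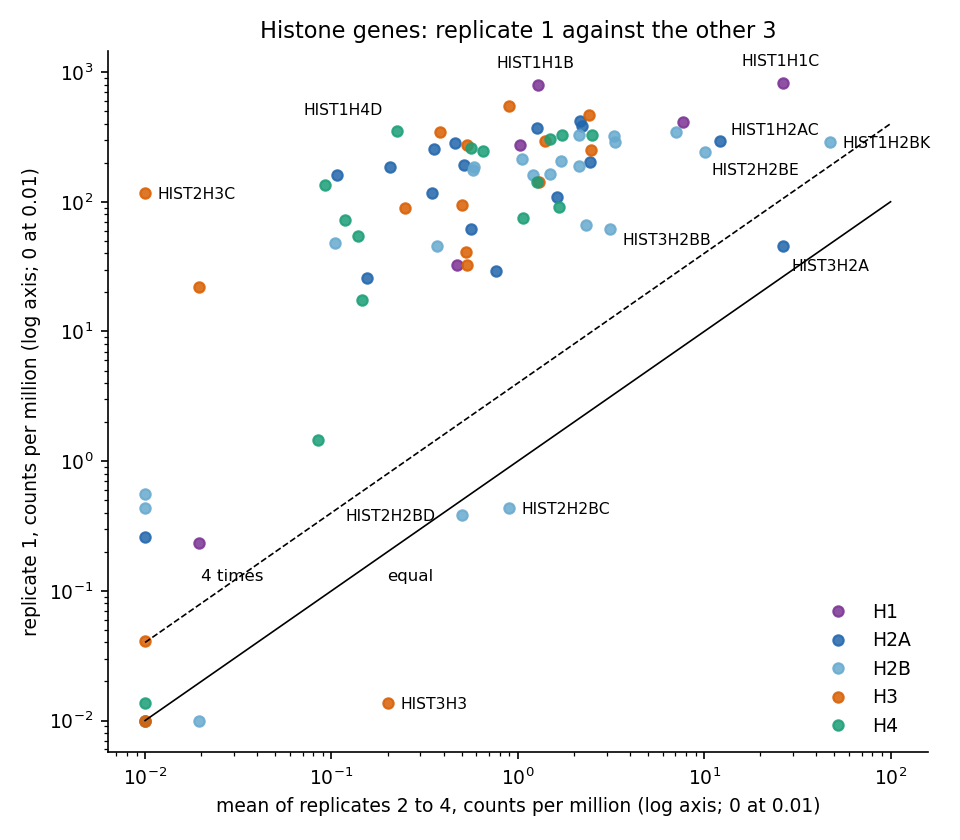
CPM in replicate 1 (vertical, log axis) against the mean of replicates 2 to 4 (horizontal, log axis) for the 78 histone genes, coloured by type, with 0 drawn at 0.01; the solid line marks equal values and the dashed line a 4-fold difference from the mean. HIST3H2A, at 45.5 against 26.6, lies near the line of equality, while HIST1H1B, at 802 against 1.29, lies far above it.

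The HIST2 cluster holds duplicated genes on which reads are hard to place. HIST2H3A and HIST2H3C share an unbroken run of 1656 bases, the whole of their annotated transcripts. They had 1603 and 8568 counts in replicate 1, and together 1, 0 and 0 counts in replicates 2 to 4. HIST2H2AA3 and HIST2H2AA4 share 549 bases and had 13543 and 1878 counts in replicate 1, and HIST2H4A and HIST2H4B share 1547 bases and had 1288 and 9872. Within these pairs the larger count was 5.34 to 7.66 times the smaller, and how the authors' counting split shared reads is not given in the sources used here, so only the sums of the pairs are firm (10171, 15421 and 11160 counts in replicate 1). HIST2H2BF, HIST2H2AB and HIST2H3D were at 189, 116 and 41.0 CPM in replicate 1 and at most 3.60, 0.528 and 0.762 CPM in the others. They were not searched for sequence shared with other genes, and HIST2H2BF overlaps other annotated genes, among them FCGR1A on the opposite strand. The non-coding members HIST2H2BC and HIST2H2BD were at most at 1.06 and 0.528 CPM in any replicate, and HIST2H2BA had 41 counts in replicate 1 and none in the others.

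The make-up of the histone counts also differed between replicate 1 and the rest. H2B genes held 23.9% of the histone counts in replicate 1 and 43.2%, 43.2% and 50.7% in replicates 2 to 4. H3 genes held 19.5% in replicate 1 and 6.55%, 4.86% and 5.71% in the others, and H4 genes 17.2% against 6.04%, 5.40% and 6.46%. In each case replicate 1 lay outside the range of the other 3 and outside their counting intervals. H2A genes held 22.5% in replicate 1 and 26.6%, 24.5% and 27.3% in the others, a smaller difference, with replicate 1 again outside their range and counting intervals. H1 genes ranged from 9.80% in replicate 4 to 22.0% in replicate 3, with replicate 1 (16.8%) inside the range. By cluster, HIST1 held 88.1% in replicate 1 and 74.2% to 78.2% in the others. HIST3 held 0.771% in replicate 1 and 14.0% to 15.8% in the others, most of it from HIST3H2A. HIST2 held 7.24% to 10.5% over the 4 replicates.

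**Figure D3:**
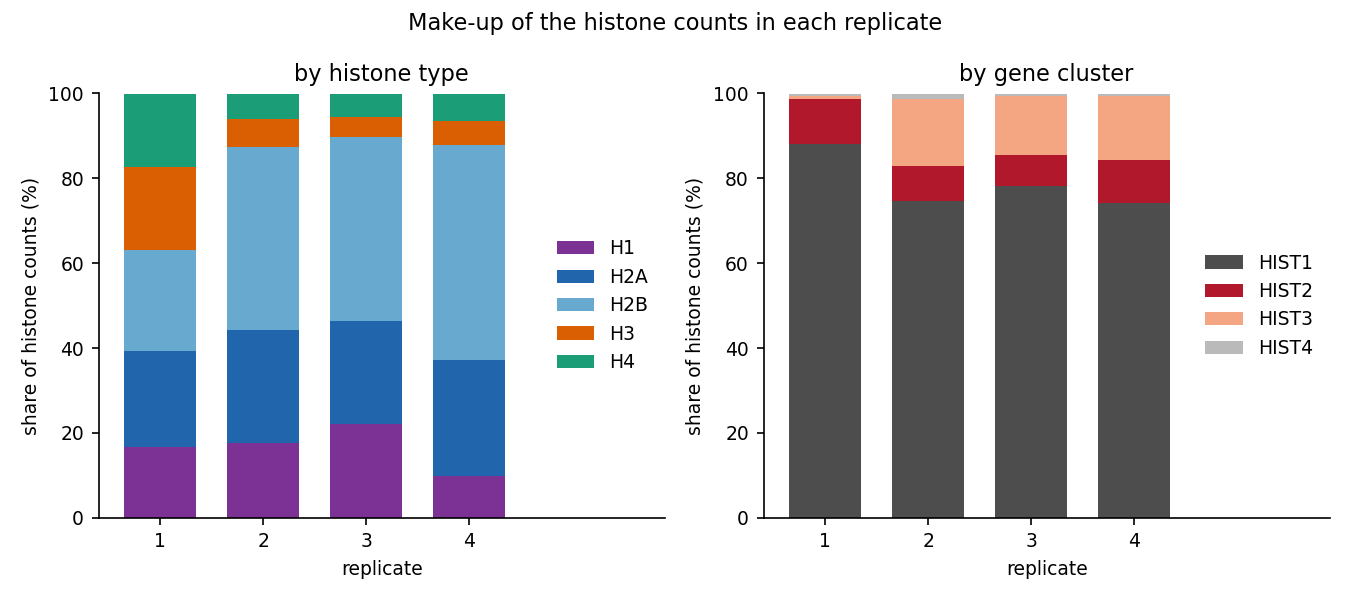
Share of the histone counts (in percent, stacked to 100%) held by each histone type on the left and by each gene cluster on the right, for each of the 4 replicates. H3 and H4 together are widest in replicate 1, and the HIST3 cluster grows from 0.771% there to between 14.0% and 15.8% in the others.

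Per length, the types were balanced in replicate 1. Summed CPM per kilobase of deposited gene length were 6421 for H2A, 6113 for H2B, 5510.3 for H3 and 6437 for H4, so that the highest core type was 1.17 times the lowest, and H1 at 3062 was 0.50 times the mean of the 4 core types. In replicates 2, 3 and 4 the highest core type was 4.73, 6.35 and 5.41 times the lowest. There, H2A and H2B together were 3.95, 4.53 and 4.04 times H3 and H4 together, against 1.05 times in replicate 1. The log2 difference of H2B minus H3 was 1.87 ± 1.16 (SD, n = 4), with 0.15 in replicate 1 and 2.24, 2.67 and 2.43 in the others. That of H2A minus H4 was 1.28 ± 0.86 (SD, n = 4), with 0.00 in replicate 1 when rounded and 1.74, 1.76 and 1.64 in the others. Part of these differences came from the 3 members that led replicates 2 to 4 (HIST1H2BK, HIST3H2A and HIST1H1C). Without them, an alternative chosen after seeing the data, H2B minus H3 was 1.43, 1.75 and 1.54 in replicates 2 to 4. H2A minus H4 was then 0.74, 0.63 and 0.56. Two-sided exact sign-flip permutation tests over the 4 replicates gave an adjusted p of at least 0.250 for all 10 pairs of types, and the smallest p that 4 replicates allow is 0.125. The study calls the 4 replicates biological repeats, while nothing in the labels says that they came from separate cultures. These p-values measure the spread between the samples only. The levels depend on the deposited lengths, which include long ends for some members, such as 2223 bp for HIST2H2BE.

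A few members carried the histone counts of replicates 2 to 4. HIST1H2BK, HIST3H2A and HIST1H1C, chosen after their values were seen as the 3 with the most counts there, held 47.5%, 52.7% and 48.5% of the histone counts in replicates 2, 3 and 4 and 8.36% in replicate 1. The fewest members that together reached 50% of the histone counts numbered 17 in replicate 1 and 4, 3 and 4 in the others. Without these 3 genes the family's share of all counts was 1.28%, 0.0126%, 0.0126% and 0.00501%. In replicate 4, HIST1H1C held 8.83% of the histone counts of the 9.80% held by all H1 genes. Without the 3 genes the H1 share of the remaining histone counts was 1.88% there, against 11.9% in replicate 1 and 13.1% in replicate 3. The order of the 72 members was closest between replicates 2 and 3 (Spearman rho 0.91 across genes) and ranged from 0.47 to 0.62 between replicate 1 and the others. Genes are not independent replicates, and members with few counts tie at the low end.

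Replicate 4 was the lowest of the 3 replicates with few histone reads. Among the 58 members with at least 10 counts summed over replicates 2 to 4, 36 were at most 1/2 as high in replicate 4 as in each of the other 2, where 4.76% of all 18793 genes were. The same rule found 0 members for replicate 2 (1.38% of all genes) and 1, HIST3H3, for replicate 3 (11.5% of all genes). The 36 included all 5 H1 members that passed the filter, 9 of 14 H2A, 11 of 18 H2B, 6 of 12 H3 and 5 of 9 H4 members. HIST1H1E was at 0.576 CPM in replicate 4, against 9.38 and 13.0 in replicates 2 and 3. HIST1H2BD (6.27, 7.95 and 6.97 CPM) and HIST1H4C (1.99, 3.49 and 2.04 CPM) did not meet the rule. At these levels most members had fewer than 20 counts in a library (medians of 16, 14 and 5 counts), so that single members were measured coarsely.

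Many H2A and H2B genes stand head to head, transcribed away from a short shared stretch of DNA. There were 15 such pairs, with 223 to 346 bp (median 267) between the annotated starts. In 8 pairs the promoters of both genes were matched and held the very same octamer, as in HIST1H2AC with HIST1H2BC and in HIST2H2AC with HIST2H2BE. In replicate 1, 14 pairs had counts for both genes, and in 9 of them the levels per kilobase lay within 2-fold. HIST1H2AE and HIST1H2BG stood at 684 and 739.8 CPM per kilobase, and HIST1H2AC and HIST1H2BC at 541 and 736. The widest gaps were between HIST2H2AA3 and HIST2H2BD (log2 difference 8.74) and between HIST2H2AA4 and HIST2H2BC (48.1 and 0.752 CPM per kilobase), both with a partner that is not protein-coding. The widest gap toward H2B was between HIST1H2AD and HIST1H2BF (-3.12), of which the former overlaps HIST1H3D.

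**Figure D4:**
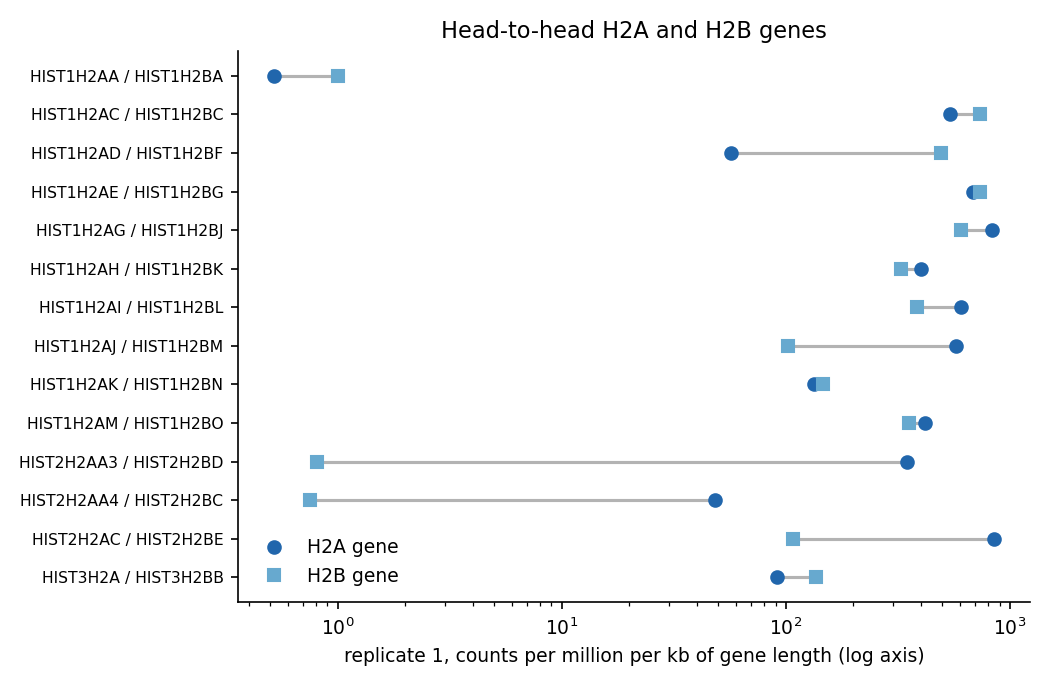
CPM per kilobase of gene length in replicate 1 (log axis) for the H2A gene (circle) and the H2B gene (square) of the 14 head-to-head pairs with counts for both. In 9 pairs the symbols lie within 2-fold of each other, and the pairs with the non-coding genes HIST2H2BC and HIST2H2BD lie widest apart.

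In the means of replicates 2 to 4, 13 pairs had counts for both genes, and 7 of them lay within 2-fold per kilobase, against 8 of the same 13 in replicate 1. The gap was wider than in replicate 1 in 7 pairs and narrower in 6. HIST1H2AE and HIST1H2BG remained close, at means of 3.90 and 4.77 CPM per kilobase. Other partners lay far apart. Per kilobase, HIST1H2BK and HIST1H2AH were at 328 and 402 CPM in replicate 1, but at a mean of 53.7 and 1.07 CPM over replicates 2 to 4. HIST3H2A and HIST3H2BB were at 91.7 and 137 CPM per kilobase in replicate 1 and at a mean of 53.7 and 6.91 in the others. HIST3H2BB had 62.0 CPM in replicate 1 and 6.21, 2.53 and 0.629 CPM in the others, a ratio of 19.9 against 1.71 for HIST3H2A. HIST2H2BE was above HIST2H2AC in each of replicates 2 to 4, with means of 4.53 and 2.92 CPM per kilobase, while HIST2H2AC was the higher in replicate 1 (848 against 108). In 5 pairs the H2B gene and in 3 the H2A gene was the higher per kilobase in each of replicates 2 to 4, among them HIST1H2AC over HIST1H2BC (means of 22.2 and 7.48).

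Members with a poly(A) signal at a long annotated end were compared with all other members. The 22 members with a poly(A) signal at a long end all passed the filter and had a median log2 ratio of 6.64 (from -1.05 to 12.09), against 7.20 (from -3.47 to 10.44) in the 50 other members that passed. They held 30.9% of the histone counts in replicate 1 and 38.1%, 38.9% and 49.6% in the others. HIST3H2A, HIST1H2AC and HIST2H2BE were in the first group, while HIST1H2BK and HIST1H1C were not. HIST1H2BK and HIST1H1C each have 1 transcript in GENCODE 29, which stops at the stop codon, so no long end could be seen for them there. The deposited gene length of HIST1H2BK is 887 bp, over a span of 8566 bp, and that of HIST1H1C is 732 bp. Some members of the second group have a long end without the signal, such as HIST3H2BB, with 1917 bases after the stem. In the family, 34 protein-coding members have only transcripts that stop at the stop codon, so none of these could fall in the first group. They make up most of the members set against it. The medians and shares therefore cannot tell members with a poly(A) signal from members that lack it. This split was chosen after the values were seen, and an annotated end does not show which end was used in these cells.

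Genes that act on histone RNA or at the same time in the cell cycle did not share the pattern. Of 19 tested genes that transcribe or process histone RNA, 0 met the 4-fold rule in replicate 1, where 5.11% of all genes tested did. In lists as short as these, 0 is near that share and says little by itself. The median log2 ratio of the 19 was -0.22, against -0.29 over all genes tested. SLBP, which binds the stem-loop, was at 57.5, 76.7, 134 and 54.4 CPM in replicates 1 to 4. NPAT, the coactivator of histone gene transcription, was at 86.4, 39.4, 19.5 and 39.1 CPM. UPF1, the helicase of histone RNA decay, was at 62.1, 319, 293 and 281 CPM. Of 15 S phase genes, 0 met the rule, with a median log2 ratio of -1.04 and a summed level of 1727, 2513, 3817 and 2447 CPM. PCNA, the sliding clamp of DNA replication, was at 281, 299, 578 and 311 CPM. None of the 7 histone chaperones met it either, and their sum was 347, 497, 627 and 546 CPM. The sums of both lists were lowest in replicate 1, although single genes were highest there, such as RRM1, a subunit of ribonucleotide reductase, at 335, 195, 309 and 239 CPM.

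Histone variants made outside S phase come from genes with polyadenylated RNA. Of 11 tested, 0 met the rule in replicate 1, where 5.11% of all genes tested did. Their median log2 ratio was -0.53, and the list summed to 1422, 2839.9, 3169.8 and 2234 CPM. H3F3B, which encodes H3.3, was at 405, 427, 511 and 281 CPM. H2AFX, whose RNA is known in both the stem-loop and the polyadenylated form, was at 65.5, 252, 480.1 and 297 CPM. In replicates 2 to 4 the 12 variant genes thus took more counts than the 78 replication-dependent genes, and in replicate 1 fewer.

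Other RNAs known to lack a poly(A) tail moved with the family. All 12 that passed the filter, of 13 listed, met the 4-fold rule in replicate 1, where 5.11% of all genes tested did. Their median log2 ratio was 9.57 (from 6.29 to 11.18). RNU1-1, RNU4-1 and RNU5A-1 passed the filter only through replicate 1 and so had to be higher there. In replicates 2 to 4 their counts were 0, 5 and 0 for RNU1-1, 0, 8 and 0 for RNU4-1, and 1, 1 and 0 for RNU5A-1. RN7SK, the RNA that holds the elongation factor P-TEFb, was at 39148, 46.3, 35.9 and 9.75 CPM, and TERC, the RNA of telomerase, was at 437, 2.93, 0.456 and 0.105 CPM. Together the 13 held 212714, 2208, 2148 and 344 CPM in replicates 1 to 4, so that replicate 4 was again the lowest. Protein-coding genes took 76.1% of the counts of replicate 1 and 95.3% to 96.4% of the others. With the listed RNAs left out of the total, an alternative added after seeing the data, the histone share of replicate 1 was 66.3 times the highest other share and 67 members met the 4-fold rule.

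**Figure D5:**
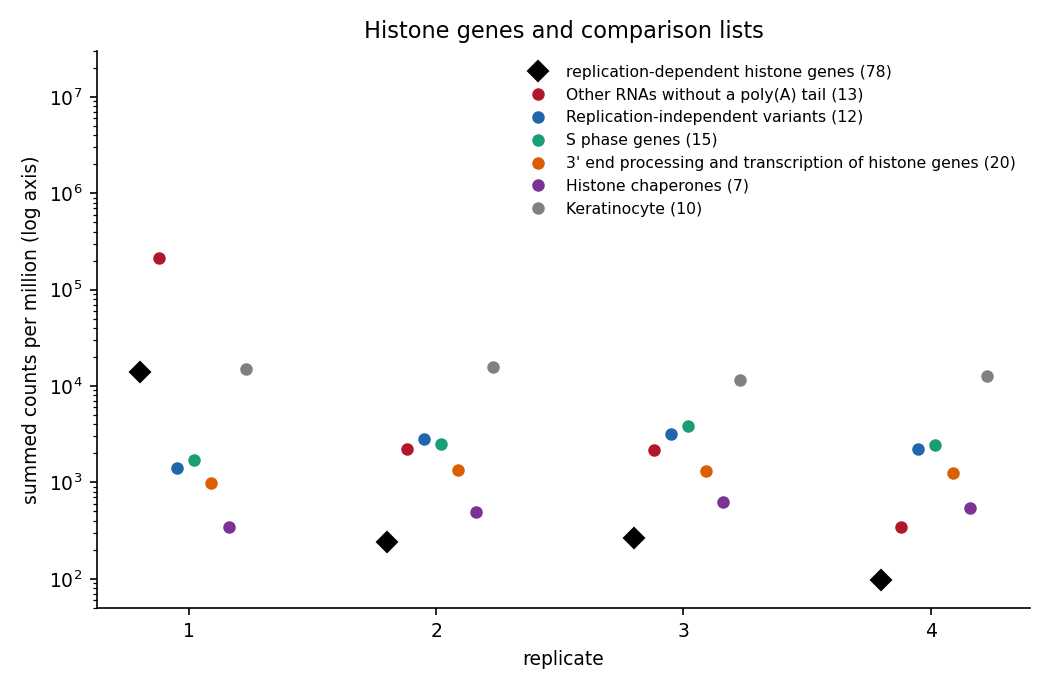
Summed CPM (log axis) of the 78 histone genes and of 6 comparison lists in the 4 replicates, with the number of genes of each list in brackets. The histone genes and the other RNAs without a poly(A) tail stand far higher in replicate 1 than in the others, and the remaining lists do not.

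Markers of the labelled cell type were present. The 10 keratinocyte markers were all detected in every replicate and summed to between 11508 and 15869.6 CPM. Of these, 0 met the 4-fold rule in replicate 1, where 5.11% of all genes tested did. The 7 fibroblast, 5 leukocyte and 4 melanocyte markers summed to at most 21.7, 32.3 and 2.93 CPM. Of these, CD3E alone met the rule in replicate 1, where the whole leukocyte list stood at 5.17 CPM. CD3E had 13, 0, 0 and 0 counts, so it passed the filter only through replicate 1 and had to be higher there. Of the 5 leukocyte markers, 2 passed the filter.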

How the data were processed

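RNA-seq of 4 HaCaT replicates was analysed. Every deposited table holds whole-number counts by gene, with gene length and position. Beside the counts, the authors gave RPKM in replicates 1 and 2 and TPM in replicates 3 and 4. The deposited RPKM and TPM follow from the counts and lengths and were not used further. The submitters' processing notes name HISAT2, HISAT, TopHat2, Bowtie2 and hg19, without roles. Treatment of strand and of shared reads is not given in the sources used here.

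CPM were counts over all counted reads (17056035 to 73082279 per replicate). Members with at least 10 counts summed over the replicates were compared by fold, with 0.5 added. The rule was tested on simulated data. Sign-flip tests were adjusted over 10 pairs by Benjamini-Hochberg.

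Named members were the 3 highest of each type, the 5 highest of replicates 2 to 4, the 5 smallest and 5 largest ratios of replicate 1 among members with at least 10 counts in each replicate, all members at 0, and the HIST2, HIST3 and HIST4 members. Other members were named after their values were seen. Members and lists were chosen with earlier results of these data known. Alternatives used edgeR 4.0.16 and DESeq2 1.42.0 (R 4.3.3) for scaling. Other steps used SciPy 1.17.1, NumPy 2.4.6 and pandas 2.3.3 under Python 3.11.15, with figures from matplotlib 3.10.9.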

Additional observations from a re-analysis of the deposited data

Results flagged for a closer look

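Dixon's test for a value far from the others in a group of 4, at the 95% level, was applied to 32 sets of values, the shares of the family, its types and clusters and the CPM of the named members. It marked 25, of which 24 were for replicate 1. Chance marks about 1 in 20 sets that were not chosen by their values. The named members were chosen by their values, and the sets share libraries, so the number of marks is a description only. The statistic, the gap to the nearest value over the whole range, was 0.988 for the histone share of all counts. It was 0.885 for the H3 share, 0.91 for the H4 share and 0.876 for the HIST3 share of the histone counts. For the HIST4 share it was 0.849, and there replicate 2 stood apart (1.22%).

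Among single members, the statistic was lowest for HIST1H2BK (0.854), HIST3H2BB (0.909), HIST1H1C (0.959), HIST1H2AC (0.968), HIST1H1E (0.97) and HIST2H2BE (0.983). It was 0.993 for HIST1H4E and 0.994 for HIST1H2AE, HIST1H2AG and HIST1H3H. It was 0.995 for HIST1H2BD and HIST1H4C, 0.997 for HIST1H2BG, HIST1H3G, HIST1H4H and HIST2H2AC, 0.998 for HIST1H1B, HIST1H3B and HIST1H3F, and 0.999 for HIST1H4D. HIST3H2A and HIST2H2BC were under the limit.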

How the results depend on the processing

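Of 218 values computed under alternatives, 204 kept their direction (differences between types), moved by less than 1 SD between replicates (shares and their ratio) or stayed within 1.5 times (counts). These SDs are wide: the mean share of the 4 replicates was 0.693% in TPM, and the ratio of 52.3 was 28.6 in TPM and 101 without the 3 leading members. The mean share of 0.364% counted as unmoved even at 0.0202%, its value without replicate 1. Where 0 members met the 4-fold rule, in replicates 2 to 4, a fold limit of 8 or a filter of 40 counts could not change that. The number 204 is thus a description only. The 67 members of replicate 1 became 65 to 68 under other fold limits, filters, prior counts and scalings and without each other replicate (67 to 68), and all of the 65 or 67 remained among the 67. They became 54 with at least 10 counts required over replicates 2 to 4, an alternative added after seeing the data. Without replicate 1, HIST1H4A met the rule in replicate 2 (1 member in place of 0; 0 to 1 over the leave-outs). The mean share without replicates 2, 3, 4 or 1 lay between 0.0202% and 0.482%. The mean of replicates 2 to 4 was 0.0691% in TPM and 0.0101% without the 3 leading members, the latter an alternative chosen after seeing the data. In TPM the mean shares were 30.0% for H2A, 5.94% for HIST2 and 1.09% for HIST4. Without the 3 leading members the mean H1 share was 9.47%. As means per member in place of sums, the differences of H1 minus H2A (0.35), H1 minus H2B (0.56) and H2A minus H2B (0.22) reversed. Without the 3 leading members, H1 minus H3 (-1.42) and H1 minus H4 (-1.87) did, and H1 minus H4 ranged from -0.29 to 0.42 without each replicate. The cause was not tested.

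The median log2 ratio stayed between 6.88 and 7.64 without each other replicate. Few counts limit single members in replicates 2 to 4. No paired analysis was possible because the samples form 1 group.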
